A study of Mus musculus with 12 samples.

Results

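The genes described here are the 10 of the MHC class II presentation pathway that carry peptides to the cell surface for CD4 T cells: H2-Aa, H2-Ab1, H2-Eb1, Cd74, H2-DMa, H2-DMb1, H2-Oa, H2-Ob, Ifi30 and Ciita. They were chosen by symbol out of 19321 gene symbols on a mouse oligonucleotide array (Toray 3D-Gene, read for Cy5), each through the probe that the probe table gives it. Each of the 10 has 1 probe, listed on 12 of 12 arrays, and all 10 passed the filter on dim probes. The arrays hold RNA of T cells sorted from the Peyer's patches, the lymphoid follicles of the small intestine, of C57BL/6 mice aged 10 weeks, males and females, with 3 to 5 mice in a pool. There are 4 fractions with 3 arrays each: γδ cells (γδTCR+ TCRβ-), and 3 fractions that are γδTCR- and TCRβ+, namely DN (CD4- and CD8β-), CD4 (CD4+) and CD8 (CD4- CD8β+). No genotype or treatment sets them apart, and the DN gate does not look at CD8α. Cd8a, which encodes CD8α, had a log2 signal of 14.42, 14.35 and 14.22 in DN 1, 2 and 3. It had 7.75 to 7.96 in the CD4 libraries and 13.49 to 14.70 in those labelled γδ and CD8. The series is about DN T cells of the gut as antigen presenting cells, so the comparisons ask in which fractions the RNA of this pathway is found.

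MHC class II molecules are pairs of an α and a β chain. They assemble in the endoplasmic reticulum on the invariant chain, Cd74, which fills the peptide groove and steers the complex to endosomes. There proteases cut the invariant chain down, and H2-DM, a pair of H2-DMa and H2-DMb1, exchanges the remaining fragment for peptide, while H2-DO, a pair of H2-Oa and H2-Ob, holds H2-DM back. Ifi30, the thiol reductase GILT, opens disulfide bonds of antigens in the same compartment. Ciita is a coactivator that binds no DNA itself and is needed for transcription of most of these genes. B cells, dendritic cells and macrophages are the cells best known for the pathway, and resting mouse T cells are not. C57BL/6 mice make I-A from H2-Aa and H2-Ab1, and they have no functional Eα chain for H2-Eb1 to pair with.

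Ciita acts on promoters with an X box, bound by RFX factors, and a Y box, bound by NF-Y. The promoters below show where these letters stand in the members themselves. RefSeq (build GRCm38.p6) gave promoter windows for 7 of the 10 members, and 5 of the 7 hold the letters GNAAC, a core of the X box, with TGATTGG, the Y box, beginning 25 to 35 bases further on along the strand of the gene. The distance from the first base of one to the first base of the other is 31 bases in H2-Aa, 30 in H2-Eb1, 31 in H2-DMb1, 31 in H2-Oa and 28 in H2-Ob. The windows of H2-DMa and Ifi30 hold neither this pair nor TGATTGG on either strand. Among all 32851 promoter windows of the same length, 0.323% hold the pair and 7.82% hold TGATTGG on either strand. The letters and the spacing were chosen after the members' promoters had been read, so the share among members is a description, and a match is not evidence of binding. The stretches shown run 5′ to 3′ up to the base before the annotated start, with both motifs in capitals. They lie at chr17:34287824-34287933 (minus strand) for H2-Aa, chr17:34305757-34305866 (plus) for H2-Eb1, chr17:34153081-34153190 (plus) for H2-DMb1, chr17:34092269-34092378 (plus) for H2-Oa and chr17:34238795-34238904 (plus) for H2-Ob.
H2-Aa: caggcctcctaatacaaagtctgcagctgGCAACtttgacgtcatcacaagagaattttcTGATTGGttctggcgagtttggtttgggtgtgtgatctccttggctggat
H2-Eb1: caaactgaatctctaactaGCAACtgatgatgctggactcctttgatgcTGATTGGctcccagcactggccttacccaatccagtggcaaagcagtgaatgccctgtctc
H2-DMb1: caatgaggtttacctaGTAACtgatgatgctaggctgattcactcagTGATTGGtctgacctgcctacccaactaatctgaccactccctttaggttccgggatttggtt
H2-Oa: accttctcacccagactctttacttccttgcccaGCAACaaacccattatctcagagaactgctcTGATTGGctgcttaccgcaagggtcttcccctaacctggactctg
H2-Ob: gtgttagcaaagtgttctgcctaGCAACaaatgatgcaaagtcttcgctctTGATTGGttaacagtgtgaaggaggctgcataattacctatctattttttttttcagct

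A pair of libraries goes against its labels and is described first. Cd8b1, the CD8β chain that the gates use, had a log2 signal of 13.80 and 13.62 in CD8 2 and CD8 3, but 8.57 in the library labelled CD8 1. It had 8.29 and 8.14 in γδ 2 and γδ 3, but 13.91 in the library labelled γδ 1. Cd163l1, known as SCART1 and expressed by γδ T cells, was at 8.57 and 8.48 (log2 signal) in γδ 2 and γδ 3, at 8.23 in the library labelled CD8 1 and at 6.11 in that labelled γδ 1. Libraries stay under their labels throughout, and the tests of the 10 genes between DN and CD4 are given for 12 arrays and again after these 2 were left out. By the array names, replicate 1 of every fraction is in one series of arrays (H, 4 arrays) and replicates 2 and 3 are in another (B, 8 arrays). Per the labels RNA was collected 3 times, without saying that each round used other mice, so the spread behind the p-values may be technical.

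Levels are given first as intensities of the deposited value table, a linear scale on which the median probe of each array is at 25. On that scale the 99th percentile of the blank spots lay at 2.14 to 6.03, depending on the array. Each gene is compared with itself across arrays, because probes differ in brightness and one gene's level cannot be set against another's.

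The chains of the class II molecule and the invariant chain were high in all 3 DN libraries, in γδ 2, in γδ 3 and in the library labelled CD8 1, and low in the other 6. H2-Aa, the I-A α chain, stood at 24098, 18639 and 16900.3 in DN 1, 2 and 3, and at 1195, 411 and 502.9 in CD4 1, 2 and 3. In the libraries labelled γδ 1, 2 and 3 it stood at 1026, 14609.8 and 13782. In those labelled CD8 1, 2 and 3 it stood at 13528, 266.1 and 278.6. The DN libraries lay above every other library for H2-Aa, and the γδ and CD8 groups overlapped through their first libraries.

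H2-Ab1, the I-A β chain, had intensities of 279.7, 937.1 and 846.2 in DN and 19.6, 17.8 and 17.8 in CD4. The γδ libraries had 7.8, 745.1 and 581.7, and the CD8 libraries 153.1, 10.6 and 11.4. DN 1 lay below γδ 2 and γδ 3 here, so that DN and γδ overlapped, while all DN values were above all CD4 and CD8 values. In its low libraries H2-Ab1 came close to the blank spots, and its highest array was 120 times its lowest. H2-Eb1, the I-E β chain, stood at 4515, 7844 and 9003 in DN, 140.5, 177.0 and 200.2 in CD4, 185.4, 6816 and 7655 in γδ and 2564, 140.3 and 141.1 in CD8. Cd74 stood at 5258, 7852 and 7247 in DN, 184.5, 165.5 and 189.7 in CD4, 108.4, 4848 and 4360.0 in γδ and 2421, 78.9 and 71.1 in CD8. The same 6 libraries were high for all 4 genes, and between their highest and lowest array H2-Aa, H2-Eb1 and Cd74 spanned 90.6-, 64.2- and 110-fold.

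**Figure D1:**
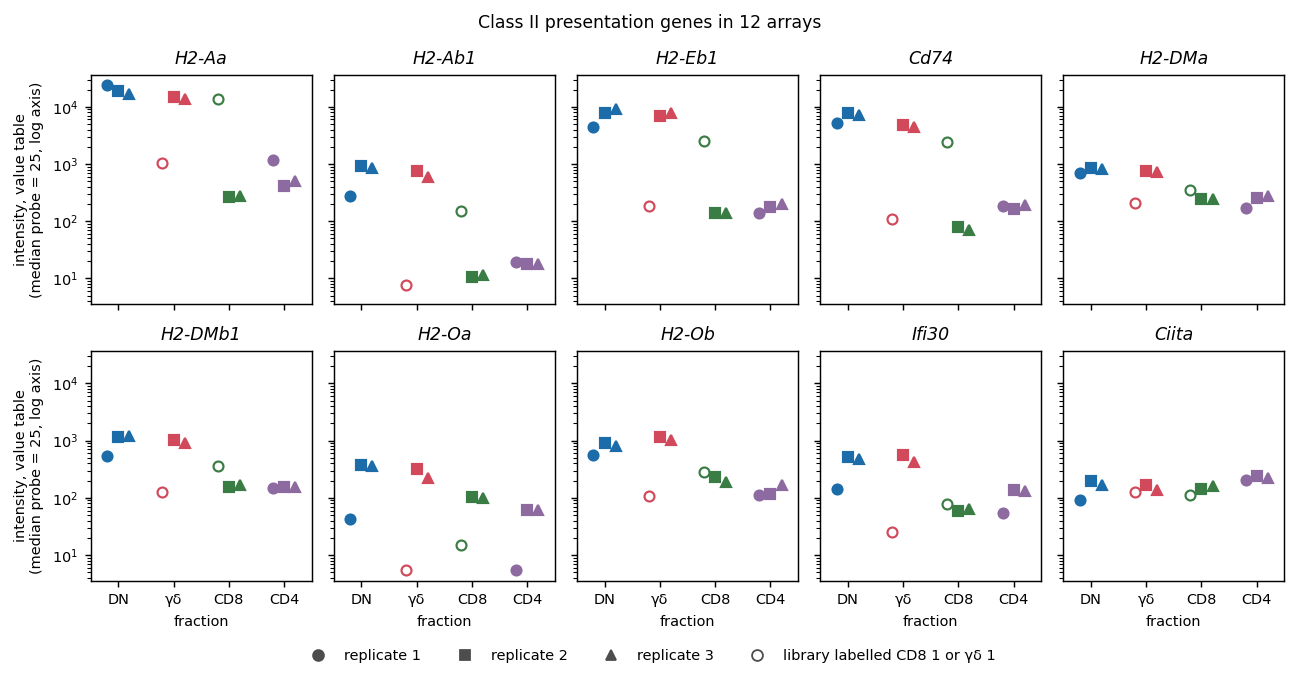
Intensity of the 10 genes in the deposited value table (vertical log axis, median probe of an array at 25) for each of the 12 arrays, by fraction. Each point is an array and its shape gives the replicate; open circles are the libraries labelled CD8 1 and γδ 1. H2-Aa reads 16900.3 to 24098 in DN and 411 to 1195 in CD4, and the open circles lie on the other side from the remaining points of their fraction for H2-Aa, H2-Ab1, H2-Eb1 and Cd74; Ciita stays between 90.8 and 236.5.

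In the fit over all 12 arrays none of the 10 members was called in any of the 6 comparisons between fractions or in the F test over the 4 fractions (limma, adjusted p under 0.05). In DN against CD4, 2.28% of the 16942 genes tested were called, in DN against CD8 0.0177%, in DN against γδ 0.0118%, in γδ against CD4 1.15%, in γδ against CD8 0% and in CD8 against CD4 1.07%, with 1.17% in the F test. At an unadjusted p under 0.05 there were 7 members in DN against CD4, where 2360 of the 16942 genes passed. There were 8 in DN against CD8 (1482 genes), 6 in γδ against CD4 (1618) and 1 in CD8 against CD4 (1238). None passed in DN against γδ (751 genes) and γδ against CD8 (329), and 7 passed in the F test (1767). The log2 differences of DN against CD4 were 5.07 ± 1.55 for H2-Aa, 3.13 ± 0.90 for H2-Ab1, 5.11 ± 1.42 for H2-Eb1 and 5.09 ± 1.41 for Cd74 (limma, SE, 3 arrays each), with adjusted p of 0.147, 0.127, 0.113 and 0.112. All 3 DN values lay above all 3 CD4 values for 8 members, all but H2-Oa and Ciita, where 10.8% of all genes tested lay above in this way. The same 8 lay above in DN against CD8, where 5.99% of all genes did.

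Without the libraries labelled CD8 1 and γδ 1, 7 members were higher in DN than in CD4 (limma, adjusted p under 0.05), where 5.06% of all genes were called higher and 10.6% in either direction. These were the 4 chain genes, H2-DMa, H2-DMb1 and H2-Ob. The differences from CD4 are those given above, since no DN or CD4 array was left out, and what changed was the shared spread: the SE of H2-Aa fell from 1.55 to 0.23. The adjusted p became 1.44e-05 for H2-Aa, 0.00304 for H2-Ab1, 0.000186 for H2-Eb1 and 2.41e-05 for Cd74. The same 7 members were called higher in DN than in CD8 (5.98% of all genes called higher and 12.9% called), in γδ than in CD4 (4.62% and 8.99%) and in γδ than in CD8 (3.76% and 7.37%). The same 7 passed the F test (14.7%). These comparisons share arrays, so they are not separate evidence. The log2 differences of H2-Aa, H2-Ab1, H2-Eb1 and Cd74 were 6.00, 3.24, 5.26 and 5.85 in DN against CD8. In γδ against CD4 they were 4.64, 3.24, 5.22 and 4.43.

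Without these 2 libraries no member was called between DN and γδ (0.968% of all genes called), where the γδ group has 2 arrays. The log2 difference of DN against γδ was 0.43 ± 0.26 for H2-Aa, -0.11 ± 0.46 for H2-Ab1, -0.11 ± 0.43 for H2-Eb1 and 0.66 ± 0.28 for Cd74. For H2-Aa and Cd74 all 3 DN values lay above γδ 2 and γδ 3 on the value table, and for H2-Ab1 and H2-Eb1 the groups overlapped. On the scale of the tests Cd74 overlapped, with 11.997 in DN 1 and 11.991 and 12.031 in γδ 2 and γδ 3. There 2 members did not overlap, H2-Aa (higher in DN) and H2-Ob (lower), where 6440 of the 16942 genes did not. In replicates 2 and 3 alone, with 2 arrays in each group, DN was called higher than γδ for H2-Aa by 0.47, H2-Ab1 by 0.44 and Cd74 by 0.997 on the log2 scale (limma, adjusted p = 0.0220, 0.00294 and 0.000677). H2-Eb1 was not called there (0.37, limma, adjusted p = 0.209). The DN and γδ levels of the chain genes were thus the highest, with an order between them that depends on the arrays used, and those of CD4 and CD8 were the lowest. CD4 and CD8 were not called apart without the 2 libraries (5.39% of all genes called). The log2 difference of CD8 against CD4 was -0.93 ± 0.26 for H2-Aa (limma, adjusted p = 0.0969) and -0.76 ± 0.28 for Cd74 (0.217).

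**Figure D2:**
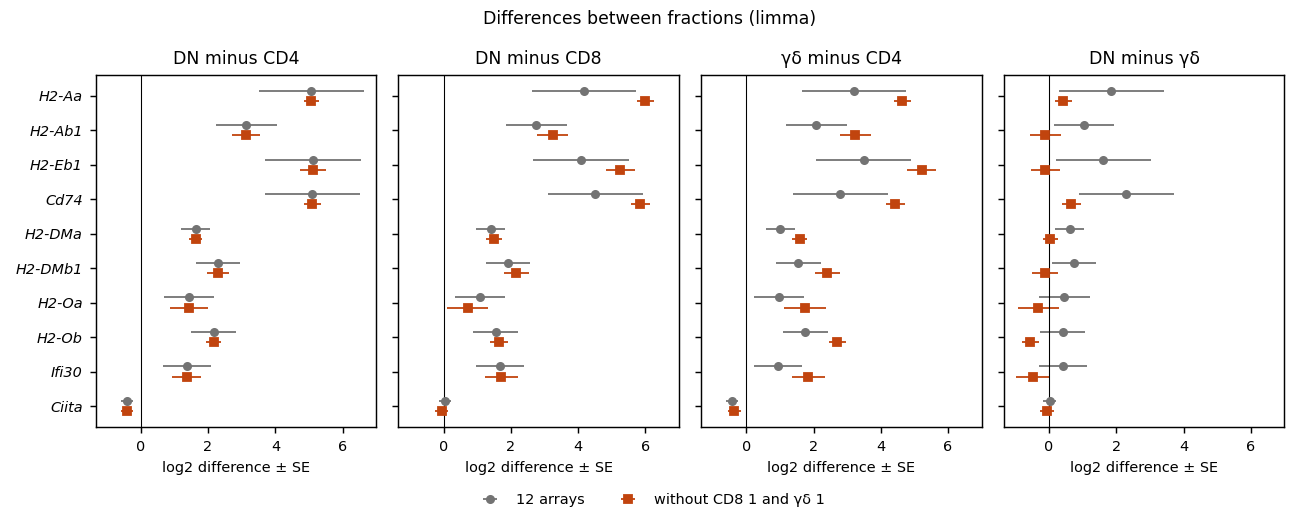
Log2 difference between fractions (horizontal axes, limma, bars ± SE) for the 10 genes in 4 comparisons, over 12 arrays (grey circles) and after leaving out the libraries labelled CD8 1 and γδ 1 (orange squares). In DN minus CD4 the points coincide and the bars shorten (SE of H2-Aa from 1.55 to 0.23), in DN minus γδ the orange points lie between -0.55 and 0.66, and Ciita lies near 0 or below in all 4 panels.

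The array series can be read apart. On the value table, DN over CD4 was 20.2-fold for H2-Aa within series H and 38.9-fold within series B. The folds were 14.3 and 50.1 for H2-Ab1, 32.1 and 44.7 for H2-Eb1, and 28.5 and 42.5 for Cd74. Each chain gene was thus higher in DN than in CD4 within both series. For γδ over CD4 the series do not match: H2-Aa was 0.859-fold in series H, which holds the library labelled γδ 1, and 31.1-fold in series B. DN over CD8 was 1.78-fold for H2-Aa in series H, which holds the library labelled CD8 1, and 65.2-fold in series B.

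The replicate number and the array series were also fitted as blocks over all 12 arrays. With the replicate number as a block, 3 members were called in DN against CD4 (5.19% of all genes): H2-DMa (adjusted p = 0.0476) and H2-Oa (0.0444) higher and Ciita lower (0.04996, limma). Blocking on the array series gave 4 (8.45% of all genes), namely H2-DMa, H2-DMb1 and H2-Oa higher and Ciita lower. It gave 1 member, Ciita, in γδ against CD4 (4.31%), in CD8 against CD4 (3.16%) and in the F test (4.75%).

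A block on the array series after the 2 libraries were left out gave more calls over all genes, so the members' counts are read against a higher share. Then 9 members were higher and Ciita lower in DN against CD4 (25.4% of all genes called) and in γδ against CD4 (22.0%). In DN against CD8 (26.5%) and γδ against CD8 (19.9%), 9 were higher, all but Ciita. None was called in DN against γδ (6.26%), 3 were lower in CD8 against CD4 (16.7%), and all 10 passed the F test (34.8%). Replicates 2 and 3 alone, from 1 array series, gave 10 members in DN against CD4 (28.4%) and γδ against CD4 (30.3%), 9 in DN against CD8 (32.6%) and γδ against CD8 (27.4%). They gave 5 in DN against γδ (12.1%), 5 in CD8 against CD4 (23.5%) and 10 in the F test (41.9%).

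The genes of the H2-DM pair were high in the same 6 libraries over smaller ranges. H2-DMa, the α chain of H2-DM, stood at 696.5, 864.7 and 801.9 in DN, 168.7, 252.9 and 278.1 in CD4, 209.3, 751.5 and 710.2 in γδ and 345.6, 245.1 and 246.4 in CD8. H2-DMb1, its β chain, stood at 535.9, 1165 and 1196 in DN, 147.9, 152.3 and 152.0 in CD4, 127.8, 1040.2 and 892.5 in γδ and 353.4, 153.4 and 170.0 in CD8. All DN values of both genes lay above all CD4 and CD8 values, and the library labelled CD8 1 lay between the DN values and those of CD4. The log2 difference of DN against CD4 was 1.63 ± 0.43 for H2-DMa (limma, adjusted p = 0.0967) and 2.29 ± 0.66 for H2-DMb1 (0.127). Without the 2 libraries the adjusted p were 0.00231 and 0.00518. H2-DMb2, a near-identical copy of H2-DMb1, is not among the genes tested, and its RNA may be read by the same probe.

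The inhibitor genes differed from each other by array series. H2-Ob, the β chain of H2-DO, stood at 570.8, 925.4 and 812.7 in DN, 112.1, 115.6 and 167.9 in CD4, 108.3, 1143 and 1039 in γδ and 283.6, 233.2 and 185.3 in CD8. It was highest in γδ 2 and γδ 3, above DN, though the difference of DN against γδ without the 2 libraries was -0.55 ± 0.26 on the log2 scale and was not called (limma, adjusted p = 0.487). H2-Ob was higher in DN than in CD4 without the 2 libraries (log2 difference 2.16, limma, adjusted p = 0.00127), and over 12 arrays the adjusted p was 0.154. H2-Oa, the α chain, stood at 43.1, 373.4 and 359.9 in DN, 5.5, 60.8 and 60.5 in CD4, 5.4, 321.2 and 224.4 in γδ and 14.8, 104.6 and 99.6 in CD8. Its highest array was 69.1 times its lowest, and its high libraries were not those of the chain genes: DN 1 and the library labelled CD8 1 lay below CD4 2, CD4 3, CD8 2 and CD8 3. The first library of every fraction, those of series H, was the lowest of its fraction, and that labelled γδ 1 lay within the blank spots of its array. Within a series DN stayed above CD4: the ratio was 7.84-fold in series H and 6.05-fold in series B. The log2 difference of DN against CD4 was 1.43 ± 0.75 (limma, adjusted p = 0.469), and 0.181 without the 2 libraries. With the replicate number as a block it was called, as given above.

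Ifi30 stood at 140.4, 523.9 and 481.8 in DN, 53.9, 134.6 and 130.8 in CD4, 25.7, 569.6 and 419.8 in γδ and 76.9, 59.7 and 65.0 in CD8. DN 1 was only just above CD4 2 and CD4 3, and the γδ 2 value was the highest of all. The DN values lay above all CD4 values by 2.60-fold within series H and 3.79-fold within series B. The log2 difference was 1.36 ± 0.71 (limma, adjusted p = 0.470), and the adjusted p was 0.106 without the 2 libraries.

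Ciita, the transactivator, did not go with the chain genes across these arrays. It stood at 90.8, 193.8 and 169.5 in DN, 203.2, 236.5 and 224.8 in CD4, 127.4, 165.3 and 138.1 in γδ and 111.1, 143.0 and 158.3 in CD8. On the value table the 3 CD4 libraries held the 3 highest values, where H2-Aa was at most 1195. There DN 1, with the highest H2-Aa, held the lowest. On the scale of the tests DN 2 had the highest H2-Aa (14.22, against 14.02 in DN 1). On that scale Ciita was still lowest in DN 1 (6.97), but DN 2 (7.66) lay above CD4 1 (7.63). On the value table the highest array of Ciita was 2.60 times its lowest, against 64.2 to 120 for the 4 chain genes. All its values lie well above the blank spots, which does not show that its probe responds to Ciita RNA, and this was not tested. The log2 difference of DN against CD4 was -0.40 ± 0.18 (limma, adjusted p = 0.366, and 0.244 without the 2 libraries). Within series DN over CD4 was 0.447-fold (H) and 0.788-fold (B). When the array series was a block, Ciita was called lower in DN, γδ and CD8 libraries than in those of CD4 (limma, adjusted p = 0.0265, 0.0319 and 0.0280). Those 3 comparisons share the CD4 arrays. Between DN and γδ the log2 difference was 0.02 ± 0.18, and between DN and CD8 0.05 ± 0.18. Ciita has several promoters and first exons, the labels do not say which part of the transcript the probe reads, and RNA level is not protein activity.

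The ratio of Ciita to H2-Aa was also taken within each array. Ciita ranged 2.60-fold over the arrays and H2-Aa 90.6-fold, so the ratio largely mirrors H2-Aa. A test of the ratio therefore mostly repeats that of H2-Aa and cannot set Ciita apart from other genes of little spread. The log2 ratio was -7.05, -6.56 and -6.51 in DN, -2.16, -6.16 and -6.28 in γδ, -6.47, -0.65 and -0.64 in CD8 and -2.00, -0.70 and -0.999 in CD4. The ratio was low on the 6 arrays with high chain genes and higher on the other 6, and only its change across arrays can be read. In an exact permutation test of the F statistic over the 369600 assignments of 12 arrays to 4 fractions, p was 0.0491, where the smallest possible is 6.49e-05. That test ignores the replicate numbers. With arrays exchanged only within a replicate number, a scheme added after the data had been seen, p was 0.0399 over 13824 assignments (exact permutation test, smallest possible 0.00174). It was 0.00175 without the libraries labelled CD8 1 and γδ 1 (exact permutation test, smallest possible 0.000317), and 0.00347 with exchange within replicate numbers (exact permutation test), the smallest it can give. Leaving out 1 library took the exact p to 0.00662 without CD8 1 and 0.0362 without γδ 1, and to between 0.0661 and 0.130 without any one of the other 10, so that the call over 12 arrays is lost without each of those.

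Ratios to Cd74 within an array show which members kept step with the invariant chain, first on the value table. Over the 12 arrays the ratio of H2-Aa to Cd74 ranged 4.06-fold, that of H2-Ab1 3.01-fold and that of H2-Eb1 2.61-fold, while Cd74 itself ranged 110-fold. Without the 2 libraries the ratios ranged 2.78-, 3.01- and 2.61-fold. The ratios of the loading genes moved more: 31.5-fold for H2-DMa, 23.5-fold for H2-DMb1, 27.2-fold for H2-Ob, 34.2-fold for Ifi30 and 229-fold for H2-Oa (171-fold without the 2 libraries, where the other 4 ranges stayed the same to 3 digits). The ratio of Ciita to Cd74 ranged 129-fold. It was 0.0173, 0.0247 and 0.0234 in DN, 0.0341 and 0.0317 in γδ 2 and γδ 3 and 0.0459 in the library labelled CD8 1, against 1.10, 1.43 and 1.19 in CD4. The mean log2 ratio in DN minus that in CD4 was between -0.25 and 0.10 for the 3 chains, between -3.48 and -2.50 for the 5 loading genes and -5.84 for Ciita. On the normexp and quantile-normalised values, the scale of the tests, it was -0.02 for H2-Aa and 0.02 for H2-Eb1 but -1.96 for H2-Ab1, whose ratio to Cd74 then ranged 8.40-fold. Whether H2-Ab1 kept step with Cd74 therefore depends on the scale.

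Within pairs of subunits the ratios, taken on the value table, behaved unlike each other. The ratio of H2-DMb1 to H2-DMa lay between 0.547 and 1.49 on all 12 arrays. H2-Ob over H2-Oa was 13.2 to 20.4 on the 4 arrays of series H and 1.86 to 4.63 on the 8 of series B, with no overlap. H2-Ab1 over H2-Aa was 0.00760 to 0.0164 in series H and 0.0354 to 0.0510 in series B. On the value table both ratios thus divided the arrays by series, and array series and replicate 1 cannot be told apart. On the scale of the tests the series overlapped for both ratios. There H2-Ob and H2-Oa had log2 signals of 7.10 and 5.79 in CD4 1 and of 10.02 and 7.98 in γδ 3. H2-Ab1 and H2-Aa had 6.04 and 9.63 in CD4 1 and 9.25 and 13.72 in γδ 3. On the value table and within series B, H2-Ob over H2-Oa was also higher in γδ 2 and γδ 3, at 3.56 and 4.63. It was 1.86 to 2.78 on the other 6 arrays. Replicate 1 over the mean of replicates 2 and 3 was 0.118-fold for H2-Oa in DN and 0.0907-fold in CD4, and 0.657- and 0.791-fold for H2-Ob. For the I-A chains it was 1.36-fold for H2-Aa and 0.314-fold for H2-Ab1 in DN, and 2.62- and 1.10-fold in CD4, so that different chains moved in these 2 fractions.

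**Figure D3:**
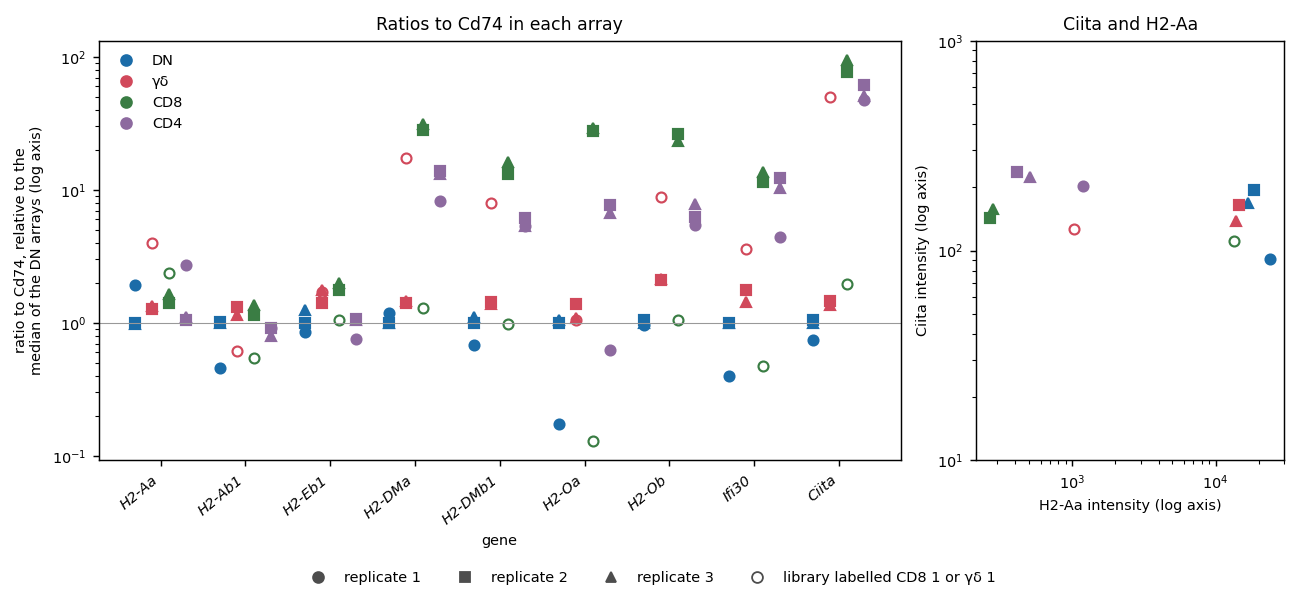
Left, ratio of each of 9 genes to Cd74 on each array, divided by the median of the DN arrays (log axis), colours for fractions, shapes for replicates, open circles for the libraries labelled CD8 1 and γδ 1; H2-Aa, H2-Ab1 and H2-Eb1 stay within 4.06-fold, and Ciita spreads over 129-fold, all on the value table. Right, Ciita against H2-Aa intensity (both log axes): H2-Aa runs from 266.1 to 24098 and Ciita from 90.8 to 236.5. On this scale, but not on that of the tests, the 3 CD4 arrays are the highest for Ciita.

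Other genes of the pathway gave a mixed picture. Of 24 symbols (proteases, the remaining chains, factors of the X and Y boxes, and surface regulators), 16 were tested. None was called in DN against CD4 over 12 arrays, where 2.28% of all genes were, and their median log2 difference was -0.13, against -0.01 over all genes. Without the libraries labelled CD8 1 and γδ 1, 3 were higher and 2 lower. In that fit 5.06% of all genes were called higher and 10.6% in either direction. Ctsh, the protease cathepsin H, was higher in DN by 2.18 ± 0.23 on the log2 scale (limma, adjusted p = 0.00109). Cd83, which stabilises class II at the surface, was higher by 1.09 ± 0.09 (0.000296) and the endosomal protease gene Lgmn by 0.43 (0.00605). Ctsb, cathepsin B, was at -0.995 (limma, adjusted p = 0.000425) and Nfyb, a subunit of NF-Y, at -0.36 (0.00686). Cathepsin S, which cuts the invariant chain in B cells and dendritic cells, is encoded by Ctss and read 82.2, 150.0 and 193.3 in DN and 119.5, 245.8 and 212.4 in CD4. Its groups overlapped, with a log2 difference of -0.31 (limma, adjusted p = 0.906, and 0.613 without the 2 libraries). Rfx5 and Rfxap, subunits of RFX, were at -0.16 and -0.26 and were not called.

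Of 8 genes known to act on Ciita transcription, 7 were tested. Ebf1 alone was called over 12 arrays, where 2.28% of all genes were. It was higher in DN than in CD4 by 0.38 (limma, adjusted p = 0.0326). Without the 2 libraries 4 of the 7 were higher, where 5.06% of all genes were higher and 10.6% were called in either direction. Irf8 was higher by 3.22 ± 0.21 (limma, adjusted p = 8.23e-05) and Spi1, which encodes PU.1, by 1.03 ± 0.04 (8.68e-06). Pax5 was higher by 0.24 (limma, adjusted p = 0.0111), on intensities of 13.4, 23.2 and 17.2 in DN and 6.1, 3.3 and 2.4 in CD4. The CD4 values were near the blank spots, whose 99th percentile was 4.33, 2.86 and 2.81 on those arrays. Irf8 read 922.3, 1358 and 1277 in DN, 97.3, 73.7 and 68.1 in CD4, 58.2, 809.9 and 665.1 in γδ and 820.3, 47.8 and 47.9 in CD8. Its high libraries were the same 6 as those of the chain genes, while Ciita was not high there. The class I pathway had no called gene of 9 tested, with a median log2 difference of 0.02 in DN against CD4, in either fit.

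As a sum, genes of B cells moved with the class II genes. Of 18 B cell symbols, 16 were tested, and their summed intensity was 17026, 15291 and 15122 in DN, 1323, 11933 and 12002 in γδ, 8594, 753.1 and 860.9 in CD8 and 1255, 576.6 and 627.4 in CD4. The 4 chain genes summed to 34151, 35272 and 33997 in DN, 1328, 27018 and 26378 in γδ, 18666, 495.9 and 502.2 in CD8 and 1540 (CD4 1), 771.3 and 910.6 in CD4. The same 6 libraries were high in both sums, and on those 6 the chain sum was 2.01 to 2.31 times the B cell sum. On the other 6 it was 0.583 to 1.45 times. Cd79b, Blnk and Ms4a1 carry much of the B cell sum, at 8087, 4090 and 2279 of 17026 in DN 1. In DN against CD4, 1 B cell gene (Ebf1) was called higher over 12 arrays, where 2.28% of all genes were called in either direction. Without the 2 libraries 13 of 16 were higher, where 5.06% of all genes were. The median log2 difference of the 16 was 1.84.

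Cd79b and Ms4a1 were far above the blank spots in DN. Pax5 was dimmer but above them, at 13.4, 23.2 and 17.2 in DN. The 99th percentile of the blank spots was 5.28, 2.51 and 2.40 on those arrays. Cd79b, a signalling chain of the B cell receptor, stood at 8087, 6317 and 6262 in DN, 550.5, 170.5 and 218.9 in CD4, 651.5, 5955 and 6585 in γδ and 3777, 427.8 and 487.8 in CD8. Ms4a1, the gene of CD20, stood at 2279, 2056 and 2701 in DN, 140.5, 40.6 and 44.8 in CD4, 132.9, 1137 and 1376 in γδ and 1127, 23.4 and 28.9 in CD8. Cd79a, the other signalling chain, was dimmer, at 34.3, 162.0 and 144.6 in DN and 15.0, 20.4 and 23.1 in CD4. Without the 2 libraries the log2 differences of DN against CD4 were 4.69 ± 0.27 for Cd79b (limma, adjusted p = 4.95e-05), 4.30 ± 0.27 for Ms4a1 (7.88e-05) and 0.97 ± 0.29 for Cd79a (0.0820). Over 12 arrays the adjusted p were 0.0539, 0.0708 and 0.185. The ratio of Ms4a1 to Cd74 ranged 5.23-fold over the 12 arrays and that of Cd79b 8.53-fold, less than those of the H2-DM genes. The ratio of Cd79a to Cd74 ranged 49.4-fold, more than those of the H2-DM genes. Cd79a was not raised in the library labelled CD8 1, at 18.5, against 19.3 and 22.9 in CD8 2 and CD8 3. Per the labels each fraction was over 98% pure once sorted, and the part of B cells in the class II signal was not tested. In sorted populations measured in bulk, more cells of a type and more RNA per cell cannot be told apart.

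Of other cell types, dendritic cell genes were mixed, with a median log2 difference of 0.09 in DN against CD4 over 12 arrays. Of 10 dendritic cell genes tested, none was called in DN against CD4 over 12 arrays and 3 were higher without the 2 libraries: Itgax (2.61), Batf3 (0.34) and Siglech (0.30, limma, adjusted p = 1.33e-05, 0.00115 and 0.0356). Of all genes, 2.28% were called over 12 arrays and 5.06% were higher without the 2 libraries. Itgax, the gene of CD11c, read 298.6, 409.2 and 400.8 in DN, 9.4, 6.7 and 5.5 in CD4, 30.8, 321.6 and 267.7 in γδ and 305.4, 16.4 and 17.2 in CD8. It was high in the same 6 libraries as the chain genes. Ccr7, on the same list, went the other way, at 16.8, 35.6 and 30.4 in DN and 54.7, 205.9 and 188.9 in CD4. Flt3, a receptor of dendritic cell precursors, was dim, at 6.3, 11.2 and 10.5 in DN. The 99th percentile of the blank spots was 5.28, 2.51 and 2.40 on those arrays. Xcr1 and Clec9a are not among the genes tested. The summed dendritic cell intensity was 1409 to 1504 in DN and 732.1 to 1098 in CD4. Of 11 macrophage and monocyte genes none was called in either fit. Csf1r, the growth factor receptor of macrophages, read 53.6 to 63.9 in DN and 60.8 to 76.6 in CD4, and Cd14 at most 4.1 on any array. Of 18 epithelial genes, 1 (Reg3b) was called higher over 12 arrays and 7 without the 2 libraries, where 5.06% of all genes were. The summed epithelial intensity was 1717 to 2712 in DN and 1054 to 1688 in CD4.

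Of 7 plasma cell genes none was called over 12 arrays, and Mzb1 (1.79) and Derl3 (0.87) were higher without the 2 libraries (limma, adjusted p = 0.00226 and 8.61e-05). The shares of all genes were 2.28% called over 12 arrays and 5.06% higher without the 2 libraries. Of 8 genes of group 3 innate lymphoid cells, which can carry class II, Tnfsf11 was lower over 12 arrays (-3.43, limma, adjusted p = 1.17e-06). Kit (0.45) and Ccr6 (0.93) were higher without the 2 libraries. The part of these cells was not tested.

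T cell genes were present in DN at levels that differed by gene. Cd3e read 84.1, 146.3 and 137.0 in DN and 69.0, 127.1 and 142.9 in CD4, with overlapping groups and a log2 difference of 0.09 ± 0.25 (limma, adjusted p = 0.974). Thy1 was lower in DN by -2.60 on the log2 scale (limma, adjusted p = 0.0284). Without the 2 libraries Cd2 and Cd247 were also lower, at -1.92 and -0.93, where 10.6% of all genes were called in either direction. The summed intensity of the 9 T cell genes was 9556 to 10477 in DN, 21754 to 27612 in CD4, 14865 in γδ 2, 12627 in γδ 3 and 13285 in the library labelled CD8 1. The 6 libraries with high class II genes had the 6 lowest T cell sums, but Thy1, at 1469 to 25785 across the arrays, carries much of this sum. The mean log2 signal of the same 9 genes does not divide the libraries in this way: it was 9.49 in both γδ 2 and γδ 3, above 9.42 in CD4 1 and 9.09 in the library labelled γδ 1. Cd3g, a chain of the CD3 complex, was the other way round, at 2176, 2819 and 2482 in DN and 1002, 1635 and 1644 in CD4.

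**Figure D4:**
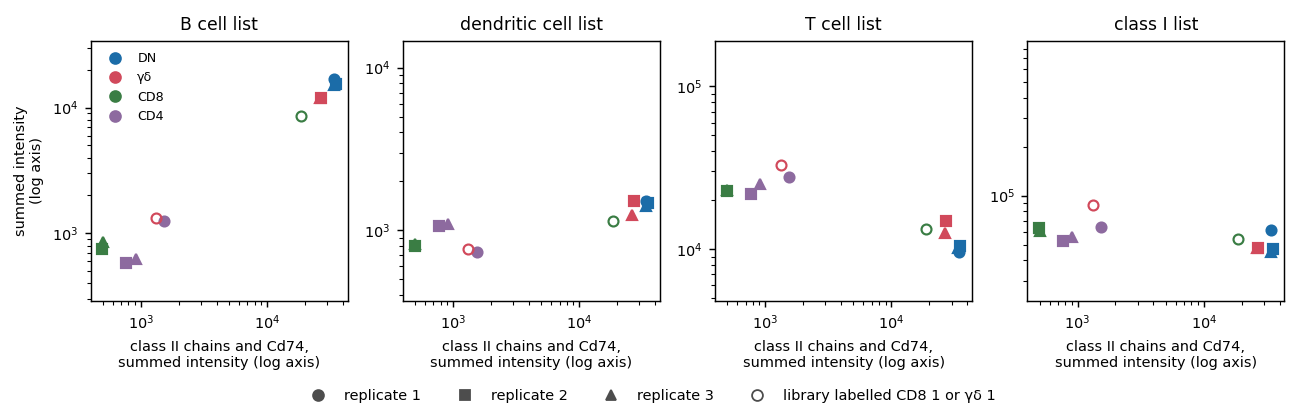
Summed intensity of 4 gene lists (vertical log axes) against the summed intensity of H2-Aa, H2-Ab1, H2-Eb1 and Cd74 (horizontal log axes), a point for each of the 12 arrays, colours for fractions, shapes for replicates and open circles for the libraries labelled CD8 1 and γδ 1. The B cell sum, much of it Cd79b, Blnk and Ms4a1, runs from 576.6 to 17026 and is high on the same 6 arrays as the chain sum. The T cell sum, much of it Thy1, is lower on those arrays (at most 14865).

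The genes nearest to the mean profile of the 4 chain genes were found by the root mean square distance of log2 profiles, each centred on its own mean over the 12 arrays. The 6 nearest genes outside the members were Scd1 (0.277), Fcmr (0.315), Ms4a1 (0.487), Pxdc1 (0.531), Blnk (0.552) and Cd79b (0.555). Fcmr encodes a receptor for IgM, Blnk an adaptor of the B cell receptor and Scd1 a fatty acid desaturase. Ms4a1, Blnk and Cd79b are on the B cell list. Without the libraries labelled CD8 1 and γδ 1, Cited4 took the place of Cd79b, and on the value table the 6 were Pxdc1, Scd1, Ly86, Fcmr, Ctsh and Fgl2. The chain genes, which make up that mean, were at 0.292 (Cd74), 0.332 (H2-Eb1), 0.559 (H2-Aa) and 0.801 (H2-Ab1). Among the other members, H2-DMb1 was at a distance of 1.22, H2-Ob at 1.32, Ifi30 at 1.52, H2-DMa at 1.56 and H2-Oa at 1.79. Ciita was at 2.37, with rank 14567 of 16942 genes. By this measure any gene of little spread lies far from the profile of the chain genes.

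Nearest to Ciita itself were Dbp (0.112), Uimc1 (0.121), Pura (0.131), Faf2 (0.131), Spire2 (0.131) and Tmx2 (0.135). Dbp encodes a transcription factor of the circadian clock and Uimc1 a ubiquitin-binding protein of DNA repair. The measure favours genes of little spread for a gene that itself varies little. Over the 12 arrays the log2 signal of Dbp ran from 6.17 in DN 1 to 6.97 in CD4 3. Uimc1 was the one of the 6 that was also among the 6 nearest without the 2 libraries, and none of them was on the value table.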

How the data were processed

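RNA of 12 sorted samples was hybridised to 1-colour arrays. Each array file gives a median intensity per spot, uncorrected and not normalized per the file headers. The deposited value table holds intensity on a linear scale: set against the spots, it rises in proportion to the spot signal above the blank spots, with the median of an array at 25. How the authors made it is not given in the sources used here, and neither is a genome build. Groups were taken from the sample labels. The probe table gave 20690 of 23473 probes 1 gene symbol, 0 several and 2783 none.

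normexp (offset 50), log2 and quantile normalisation were applied to the spot medians, and the values deposited by the authors were taken to log2 as an alternative. Genes whose probe was listed on all 3 arrays of at least 1 fraction were tested (16942), keeping the probe with the highest mean for each symbol. The 25 probes marked by the scanner software were left out. limma 3.58.1 in R 4.3.3 (lmFit, eBayes) fitted the 4 fraction means over 12 arrays. Tests were two-sided with Benjamini-Hochberg adjustment over all genes of a comparison, called at an adjusted p under 0.05. An exact permutation test was used for the ratio of Ciita to H2-Aa. Figures were drawn with matplotlib 3.10.9 in Python 3.11.15, and the steps were tested on simulated data. Log2 differences narrow for dim genes because of the offset. The number of arrays limits the precision.

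Outside the members, the text names up to 3 called genes per list, ranked by adjusted p in DN against CD4, a few defining B and T cell genes, and the 6 genes nearest to the chains and to Ciita. Ctss, Lgmn, Nfyb, Rfx5, Rfxap, Flt3, Ccr7, Csf1r, Cd14, Kit, Ccr6, Cd8a and the sort genes fall outside this rule and were added once values had been seen. The members and all lists were chosen with earlier results of these data known.

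Whether the replicate numbers pair the samples was checked. With fraction means removed, same-numbered arrays of different fractions correlated across genes above 0.1 in 18 of 18 pairs (0.100 to 0.735). By that threshold the numbers count as pairing the samples, and 10 of 12 arrays had their best partner at the same number. Number 1 and series H cannot be told apart. Within series B, arrays of different number also correlated positively. CD4 2 had 0.592 with CD8 3 and 0.586 with CD8 2, and DN 2 had 0.559 with γδ 3 and 0.672 with γδ 2. The threshold thus does not separate pairing by number from a shared array series. Alternatives were the values, the scaling, the background correction, the offset, the filter, the probe rule, the blocks, the samples in the fit and leaving out libraries.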

Additional observations from a re-analysis of the deposited data

How the results depend on the processing

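Over the 12 arrays, 0 members called in each comparison held under median scaling, no background correction, offset 16, no filter, the mean of probes and the value table. With the fit on the 2 groups alone, 7 members were called in DN against CD4, where 870 of the 16942 genes were called. None was called in the other comparisons. The replicate block, which is the pairing by number, gave 3 members in DN against CD4 and 0 elsewhere. The array series as a block gave 4 in DN against CD4, and 1 each in γδ against CD4, CD8 against CD4 and the F test. Without the libraries labelled CD8 1 and γδ 1, 7 members were called in DN against CD4, DN against CD8, γδ against CD4, γδ against CD8 and F. On the value table without them, tried after the data had been seen, the counts in that order were 7, 8, 8, 8 and 8, with 1 in CD8 against CD4 (Cd74). The genes called there were 1262, 1729, 977, 766 and 1722, and 524 in CD8 against CD4. On the scale of the tests, the series block without the 2 libraries gave 10, 9, 10, 9 and 10 members, with 3 in CD8 against CD4. The shares of all genes for that fit are given above. Replicates 2 and 3 alone gave 10, 9, 10, 9 and 10, 5 in CD8 against CD4 and 5 in DN against γδ, and may rest on technical spread. Leaving out 1 library gave 0 to 6 members in DN against CD4 (128 to 991 genes called) and 0 to 2 in DN against CD8 (2 to 1150). It gave 0 to 0 in DN against γδ (2 to 19 genes) and 0 to 5 in γδ against CD4 (91 to 715). The members were 0 to 1 in γδ against CD8 (0 to 16 genes), 0 to 0 in CD8 against CD4 (88 to 411) and 0 to 6 in F (76 to 1042). The exact p of the ratio of Ciita to H2-Aa was 0.0540 on the value table, 0.0566 with median scaling and 0.0530 with offset 16, and 0.00662 to 0.130 without 1 library. Signal over background limits H2-Ab1 and H2-Oa in their low libraries.

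Signs turned in differences that were not called over the 12 arrays. Without the libraries labelled CD8 1 and γδ 1, DN minus γδ was -0.11 for H2-Ab1, -0.11 for H2-Eb1, -0.12 for H2-DMb1, -0.31 for H2-Oa, -0.55 for H2-Ob, -0.48 for Ifi30 and -0.055 for Ciita. CD8 minus CD4 was -0.93 for H2-Aa, -0.11 for H2-Ab1, -0.15 for H2-Eb1 and -0.76 for Cd74. Ciita was at -0.060 in DN minus CD8 and -0.0048 in γδ minus CD8. On the value table without them, DN minus γδ was -0.12, -0.080, -0.087, -0.58, -0.53, -0.57 and -0.070 in the same order, CD8 minus CD4 -1.20, -0.74, -0.28 and -1.26, and Ciita in DN minus CD8 -0.064. With the series block and without them, DN minus γδ was -0.37 for H2-Ob and -0.092 for Ifi30. There CD8 minus CD4 was -0.81 for H2-Aa, -0.39 for H2-Ab1, -0.45 for H2-Eb1, -0.94 for Cd74, -0.062 for H2-DMa and -0.12 for H2-DMb1, and Ciita was at -0.0048 in γδ minus CD8. With replicates 2 and 3 alone, H2-Ob was at -0.28 in DN minus γδ and Ciita at -0.0048 in γδ minus CD8. CD8 minus CD4 was then -0.64 for H2-Aa, -0.12 for H2-Ab1, -0.27 for H2-Eb1, -0.78 for Cd74 and -0.075 for H2-DMa.

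Without 1 library, DN minus γδ ran from -0.11 to 1.64 for H2-Ab1, -0.11 to 2.59 for H2-Eb1, -0.12 to 1.19 for H2-DMb1, -0.31 to 1.15 for H2-Oa, -0.55 to 0.91 for H2-Ob, -0.48 to 0.95 for Ifi30 and -0.11 to 0.23 for Ciita. CD8 minus CD4 ran from -0.93 to 1.84 for H2-Aa, -0.11 to 0.62 for H2-Ab1, -0.15 to 1.61 for H2-Eb1 and -0.76 to 1.26 for Cd74. Ciita ran from -0.077 to 0.27 in DN minus CD8 and from -0.078 to 0.12 in γδ minus CD8. The genes called over the whole array ran from 128 to 991 in DN against CD4 and from 2 to 1150 in DN against CD8. The cause of these moves was not tested.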
